A study of Homo sapiens with 9 samples.

Results

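The fibroblast growth factor (FGF) carriers, ligands and receptors of the human ovarian cancer line SKOV3, an established cell line, were followed across a knockdown experiment. The genes were the carriers FGFBP1 and FGFBP3, the ligands FGF1 and FGF2, the receptors FGFR1, FGFR2, FGFR3, FGFR4 and FGFRL1, and the co-receptor SDC1. They were chosen by symbol from the deposited gene table, and all 10 were found among its 36785 genes. The choice was made with the changes against the control already known, FGFBP1 having stood out for its fall, so levels and changes against the control are given as descriptions, without p-values, and the counts of calls against the control are printed once beside the share of all genes and read for nothing. All 10 passed the filter on low counts, as did 21296 genes in all.

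The tested cells were labelled sh3 (STXBP6 knockdown_3) and sh1 (STXBP6 knockdown_1), and the control cells were labelled shNC (genotype NC). All had undergone lentiviral transduction, and each group had 3 libraries of poly(A)-selected RNA. STXBP6 encodes a syntaxin-binding protein of the exocytosis machinery. The labels name neither the hairpin sequences nor separate cultures or clones, and the replicate spread on which every p-value here rests may be technical.

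FGFs are secreted proteins that bind heparan sulfate and signal through receptor tyrosine kinases. FGFBP1 and FGFBP3 bind FGFs outside the cell and release them from the heparan sulfate that stores them in the matrix. FGFR1 to FGFR4 carry a tyrosine kinase, FGFRL1 lacks it, and SDC1 (syndecan-1) is a transmembrane proteoglycan whose heparan sulfate chains bind FGFs. FGF1 and FGF2 lack a classical signal peptide and leave cells by an unconventional route.

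The libraries held 57654447 to 69264400 counts. STXBP6 itself was near the limit of detection, with 20, 31 and 18 counts in the sh3 libraries, 7, 4 and 26 in the sh1 libraries, and 4, 0 and 15 in the shNC libraries. In CPM all 3 libraries labelled sh3 lay above all 3 labelled shNC, which runs against the label, and sh1 overlapped shNC. The log2 fold change of STXBP6 was 1.81 ± 1.01 (SE, adjusted p = 0.23, edgeR) for sh3 minus shNC and 0.87 ± 1.02 (SE, adjusted p = 0.56) for sh1 minus shNC. No lower STXBP6 level was thus measured under either knockdown label, and sh3, sh1 and shNC below are the labels' names, whatever the direction given. Of 10 markers of this line, 7 reached a mean of 1 FPKM (fragments scaled by gene length and library size by the authors), led by the amplified ERBB2 at 755 FPKM, while CDH1 was at 0.2, CLDN4 at 0.634 and MUC16 at 0.0139 FPKM. Their summed level was 1140 to 1186 FPKM in sh3, 716 to 746 in sh1 and 1112 to 1218 in shNC. Of the other lists, fibroblast and pericyte markers summed to 14.0 to 14.8, 18.9 to 19.7 and 17.2 to 20.4 FPKM in sh3, sh1 and shNC (4 of 8 at 1 FPKM or more). Endothelial markers summed to 2.73 to 2.93, 0.978 to 1.16 and 1.96 to 2.21 FPKM (1 of 6), and leukocyte markers to at most 0.414 FPKM in any library (0 of 4 with a row). The part of these differences in the results was not tested. The library shNC replicate 3 stood farther from its replicates, with a chi-square per degree of freedom of 16.4 and 18.3, against 8.73 to 10.7 for the other replicate pairs.

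The upstream regions of the carrier genes are shown because FGFBP1 had the widest change of the 10 genes. Each is the 250 bases before the start site on the minus strand, 5′ to 3′, from RefSeq on GRCh38.p14. They lie at chr4:15938741-15938990 for FGFBP1 and chr10:91909487-91909736 for FGFBP3. Capitals mark the CCAAT motif or its reverse complement ATTGG.
FGFBP1: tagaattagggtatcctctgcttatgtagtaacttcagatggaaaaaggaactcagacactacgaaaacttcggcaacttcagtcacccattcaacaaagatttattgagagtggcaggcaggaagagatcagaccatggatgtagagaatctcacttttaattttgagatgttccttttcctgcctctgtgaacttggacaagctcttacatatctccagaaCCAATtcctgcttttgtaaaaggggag
FGFBP3: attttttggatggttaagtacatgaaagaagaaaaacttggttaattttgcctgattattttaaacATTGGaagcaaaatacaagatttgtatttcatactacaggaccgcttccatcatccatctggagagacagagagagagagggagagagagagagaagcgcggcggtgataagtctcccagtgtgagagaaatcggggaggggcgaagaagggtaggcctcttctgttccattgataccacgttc
The motif stood at bases -27 to -23 in FGFBP1 and -184 to -180 in FGFBP3, counted from the start site, and 32.0% of 35116 promoter windows of this length held it on either strand. Neither window held TGANTCA, an AP-1 motif found in 6.57% of windows, GGGCGG, the GC box found in 42.6%, TATAAA, found in 10.7%, or GGAATG, a TEAD motif found in 11.9%. Each held 1 match to CANNTG, the E-box, found in 61.8%. The motifs were searched on both strands, and a match or its absence describes the letters of the window only. The windows were 40.8% G and C for FGFBP1 and 43.2% for FGFBP3, against a median of 58.0% over all windows. Over the 18 windows listed for the 10 genes the share ran from 40.8% to 86.8%. The poorest windows of FGF1 at 44.8% and FGFR2 at 42.8% were near those of the carriers. Other windows of these genes reached 60.8% for FGF1 and 78.4% for FGFR2. That of FGFR3 at 86.8% was the richest. In all, 9 of the 10 genes had entries in the promoter table.

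FGFBP1 (ENSG00000137440, GRCh38 chromosome 4, 15935577 to 15938740, minus strand) was by FPKM the most abundant of the 10 genes in shNC cells and stood in place 4 in sh3 and in sh1. In the GENCODE 29 annotation it has 3 exons, of which exon 3 holds the whole coding region. It had 46.2, 42.8 and 41.8 CPM (counts scaled to library totals adjusted by TMM) in sh3, 21.4, 22.3 and 22 CPM in sh1, and 222, 218 and 272 CPM in shNC. All 6 sh3 and sh1 libraries lay far below the 3 control libraries, and the sh1 libraries lay below those of sh3. The means were 43.6 ± 2.33 CPM in sh3, 21.9 ± 0.44 CPM in sh1 and 237 ± 30.1 CPM in shNC (SD, n = 3 each). Its log2 fold change was -2.44 ± 0.08 (SE) for sh3 minus shNC and -3.44 ± 0.08 (SE) for sh1 minus shNC. Only 114 of 21296 genes had a lower log2 fold change with sh3, and 79 with sh1. In bulk RNA, fewer cells expressing a gene and less RNA per cell cannot be told apart.

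The difference between the hairpins was not named in the choice. It follows, however, from the changes of sh3 and sh1 against the control, which were known. Its p-values for these genes are thus not those of an unselected test. FGFBP1 was 1.99-fold higher in sh3 than in sh1 (log2 0.99 ± 0.08 SE, adjusted p = 3.7e-06, edgeR quasi-likelihood test with Benjamini-Hochberg adjustment over all genes tested).

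FGFBP3 (ENSG00000174721, chromosome 10, 91906584 to 91909486), the related carrier, was scarce. It had 65, 92 and 78 counts in sh3, 49, 26 and 47 in sh1, and 78, 30 and 51 in shNC. In CPM the sh3 libraries lay above all sh1 libraries, while both overlapped shNC. Relative to shNC, the log2 fold change was 0.60 ± 0.36 (SE) in sh3 and -0.35 ± 0.37 (SE) in sh1. For sh3 minus sh1 it was 0.94 ± 0.37 (SE, adjusted p = 0.084, edgeR), which missed the threshold. Without shNC replicate 1 the values against shNC were 0.93 for sh3 and -0.02 for sh1, and without shNC replicate 2 they were 0.30 and -0.64. Without shNC replicate 2 the difference of sh3 minus sh1 was 0.95 (adjusted p = 0.043, edgeR, with the alternatives giving 0.043 to 0.24).

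FGFBP2 (ENSG00000137441), a gene of the same family that is not among the 10 genes, was singled out after its values were seen. It lies 21505 bases from FGFBP1 at chr4:15960245-15969309. It held 4, 0 and 4 counts in sh3, 0, 4 and 0 in sh1, and 36, 25 and 14 in shNC. The sh3 and sh1 libraries thus lay below every control library at trace levels, with summed counts of 8 in sh3, 4 in sh1 and 75 in shNC. Within 500 kb of FGFBP1, 8 other genes were tested, FGFBP2 among them. Of these, 1 was called lower with sh3 and 5 with sh1 (edgeR), against 12.4% and 18.8% of all genes tested. None was called higher with either, against 14.4% and 19.9%. FGFBP2, at trace levels, was among those called with sh1, and nothing is read from counts over so few genes. The nearest other one, the ectoenzyme gene BST1, 197269 bases away, had a log2 fold change of -0.13 ± 0.13 (SE, adjusted p = 0.55, edgeR) for sh3 and -0.70 ± 0.14 (SE, adjusted p = 0.0014) for sh1. TAPT1, 221765 bases away, fell with both hairpins, with a log2 fold change of -0.21 for sh3 and -0.20 for sh1 (adjusted p = 0.037 and 0.03, edgeR).

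**Figure D1:**
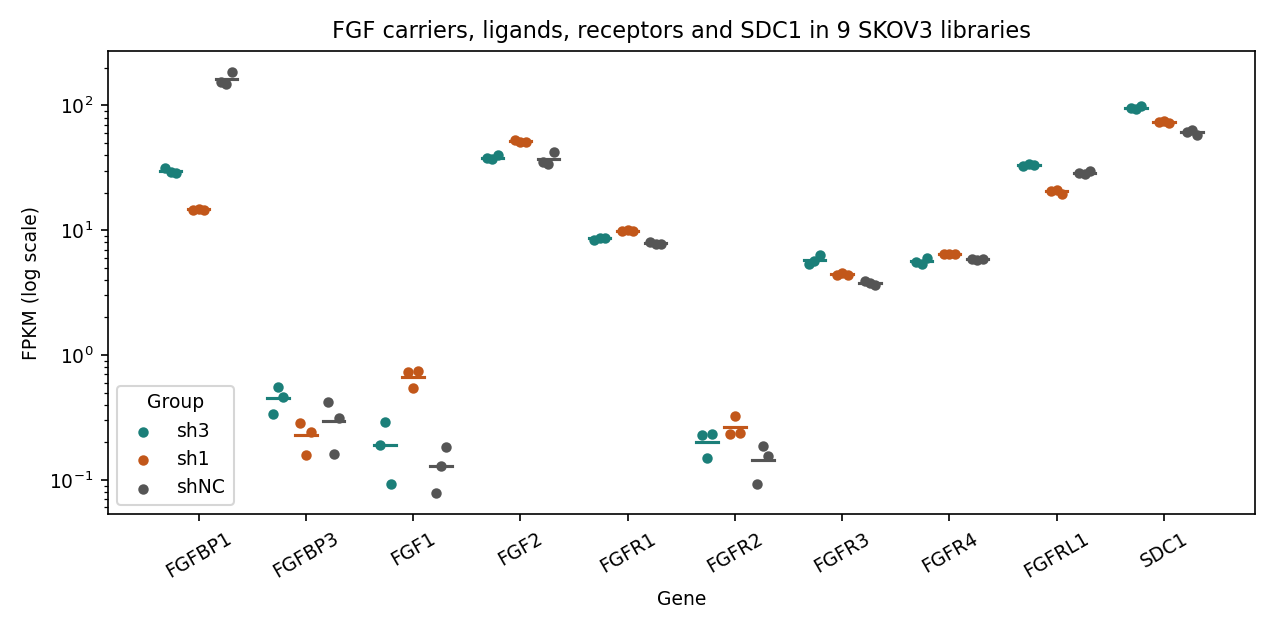
Level of each gene in FPKM (log axis) in the 9 libraries. Points are libraries and bars are group means of 3, with sh3, sh1 and shNC from left to right; FGFBP1 stands at 149 to 186 FPKM in shNC and at most 31.4 FPKM in the sh3 and sh1 libraries, while SDC1 is highest in sh3.

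FGF2 (ENSG00000138685, chromosome 4, 122826708 to 122898236), the basic FGF, was the abundant ligand and was higher with sh1. It had 279, 273 and 289 CPM in sh3, 396, 379 and 383 CPM in sh1, and 257, 249 and 308 CPM in shNC. The sh1 libraries lay above all others, and the sh3 libraries lay within the range of shNC. Its log2 fold change was 0.05 ± 0.06 (SE) for sh3 minus shNC and 0.51 ± 0.06 (SE) for sh1 minus shNC. FGF2 was lower in sh3 than in sh1, with a log2 fold change of -0.46 ± 0.06 (SE, adjusted p = 2.7e-04, edgeR). The sh3 value moved with single control libraries, at 0.15 without shNC replicate 3, the highest control, and -0.01 without shNC replicate 2. NUDT6, on the opposite strand, overlaps FGF2 by 9540 bases with a mean of 1.20 FPKM against 42.3 FPKM for FGF2. The sources used here do not say if strand was used when reads were counted, and reads in that overlap cannot be told apart.

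FGF1 (ENSG00000113578, chromosome 5, 142592178 to 142698052), the acidic FGF, which binds all FGF receptors, was near 1 CPM outside sh1. It held 70, 94 and 32 counts in sh3, 242, 174 and 281 in sh1, and 29, 47 and 58 in shNC. The sh1 libraries lay above all others, and sh3 and shNC overlapped. The means were 1.04 ± 0.52 CPM in sh3, 3.70 ± 0.609 CPM in sh1 and 0.708 ± 0.281 CPM in shNC (SD, n = 3 each). Relative to shNC, the log2 fold change was 0.56 ± 0.38 (SE) in sh3 and 2.39 ± 0.38 (SE) in sh1, and only 90 genes had a higher value with sh1. The sh3 value moved with single libraries, at 0.14 without sh3 replicate 2, 0.88 without sh3 replicate 3, 0.30 without shNC replicate 1 and 0.87 without shNC replicate 3. For sh3 minus sh1 it was -1.84 ± 0.37 (SE, adjusted p = 0.0033, edgeR), so FGF1 was 3.57-fold lower in sh3 than in sh1. On log2(FPKM + 1), which compresses a gene at this level, the sh1 minus shNC value was 0.56. SPRY4-AS1, on the opposite strand, overlaps FGF1 and had a mean of 0.0578 FPKM.

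Because FPKM is scaled by gene length, carrier and ligand were set against each other in FPKM within a library. The ratio of FGFBP1 FPKM to FGF2 FPKM was 0.832, 0.787 and 0.724 in sh3, 0.271, 0.294 and 0.289 in sh1, and 4.32, 4.38 and 4.42 in shNC. By FPKM the carrier transcript exceeded the ligand transcript in every control library and lay below it in every sh3 and sh1 library. The order in shNC rests on the gene lengths behind FPKM, which are not given. In CPM FGFBP1 lay below FGF2 in every shNC library, at 222, 218 and 272 against 257, 249 and 308. The ratio thus compares groups and does not show that FGFBP1 exceeded FGF2 in shNC. In shNC the ratio varied little, at 4.37 ± 0.0498 (SD, n = 3), although FGFBP1 and FGF2 in shNC replicate 3 were 1.24 and 1.22 times their means in the other shNC libraries.

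**Figure D2:**
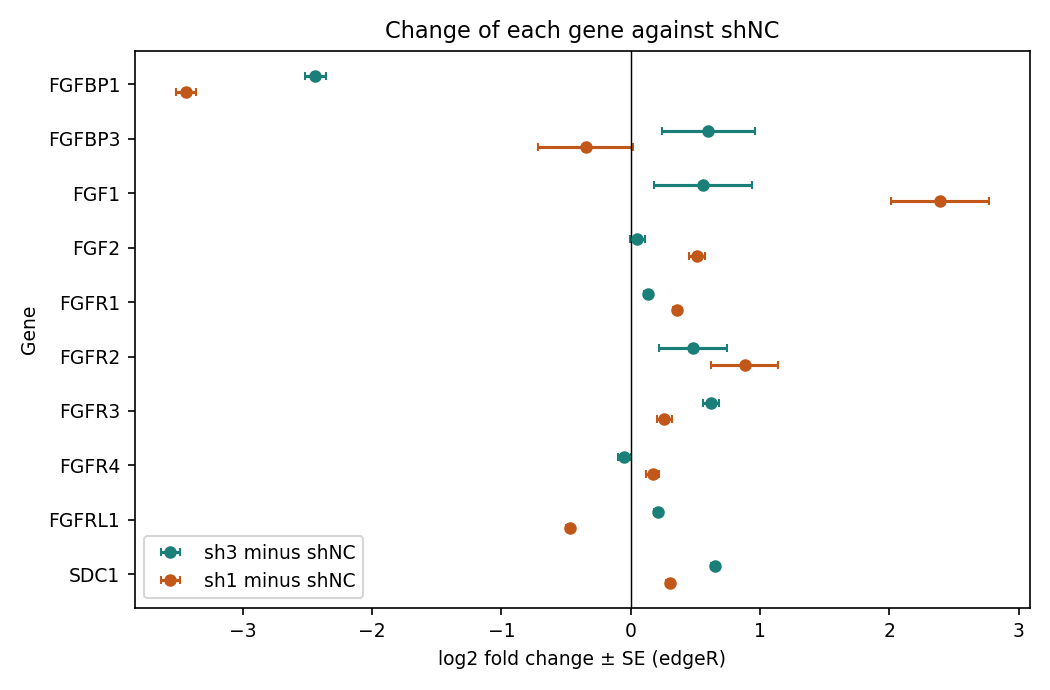
Log2 fold change of each gene against shNC with its SE from the edgeR fit, sh3 above sh1 for each gene. FGFBP1 is lowest with both hairpins, at -2.44 for sh3 and -3.44 for sh1, FGF1 is highest with sh1 at 2.39, and FGFRL1 lies on opposite sides of 0.

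Among the receptors with a kinase, FGFR1 (ENSG00000077782, chromosome 8, 38400215 to 38468834) was the most abundant in every group. It had 158, 162 and 161 CPM in sh3, 185, 189 and 188 CPM in sh1, and 148, 144 and 145 CPM in shNC. The 3 groups did not overlap, in the order sh1, sh3 and shNC from high to low. Its log2 fold change was 0.13 ± 0.03 (SE) for sh3 minus shNC and 0.36 ± 0.03 (SE) for sh1 minus shNC. The level was lower in sh3 than in sh1, by a log2 fold change of -0.22 ± 0.03 (SE, adjusted p = 9.4e-05, edgeR). LETM2, on the opposite strand with a mean of 2.04 FPKM, overlaps FGFR1 by 9313 bases.

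FGFR3 (ENSG00000068078, chromosome 4, 1793293 to 1808872) was highest in sh3. It had 28.5, 29.9 and 33.1 CPM in sh3, 23.3, 24.5 and 23.6 CPM in sh1, and 20.5, 19.9 and 19.1 CPM in shNC. No library of a group reached the range of another. The log2 fold change was 0.62 ± 0.06 (SE) for sh3 minus shNC, 0.26 ± 0.06 (SE) for sh1 minus shNC and 0.36 ± 0.06 (SE, adjusted p = 0.0017, edgeR) for sh3 minus sh1.

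FGFR4 (ENSG00000160867, chromosome 5, 177086905 to 177098022), the main receptor for FGF19 in liver, changed least of the 10 genes with sh1. It had 29.3, 28.1 and 30.8 CPM in sh3, 34.0, 34.4 and 34.6 CPM in sh1, and 30.8, 30.1 and 30.6 CPM in shNC. The sh1 libraries lay above all others, and sh3 and shNC overlapped. The log2 fold change was -0.05 ± 0.05 (SE) for sh3 minus shNC, 0.17 ± 0.05 (SE) for sh1 minus shNC and -0.22 ± 0.05 (SE, adjusted p = 0.0048, edgeR) for sh3 minus sh1.

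FGFR2 (ENSG00000066468, chromosome 10, 121478332 to 121598458), whose splice forms separate epithelial from mesenchymal cells, was barely expressed. It held 324, 187 and 290 counts in sh3, 298, 392 and 343 in sh1, and 128, 260 and 191 in shNC. In CPM the sh1 libraries lay above all others, by a narrow margin over sh3, and sh3 and shNC overlapped. Relative to shNC, the log2 fold change was 0.48 ± 0.26 (SE) in sh3 and 0.88 ± 0.26 (SE) in sh1. Both values moved with single libraries, at 0.24 for sh3 and 0.64 for sh1 without shNC replicate 1, and 0.71 and 1.11 without shNC replicate 2. The difference of sh3 minus sh1 was -0.41 ± 0.25 (SE, adjusted p = 0.29, edgeR). A gene table cannot tell the splice forms apart.

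The kinase receptors together had 19.6, 19.9 and 21.2 FPKM in sh3, 20.8, 21.3 and 20.8 FPKM in sh1, and 17.9, 17.5 and 17.4 FPKM in shNC. FGFR1 made up 42.5% ± 1.30 of this sum in sh3, 46.9% ± 0.17 in sh1 and 44.5% ± 0.229 in shNC (SD, n = 3 each). FGFR3 took 28.7% ± 1.19 in sh3, 21.2% ± 0.274 in sh1 and 21.5% ± 0.554 in shNC. FGFR4 took 27.8% ± 0.702, 30.7% ± 0.326 and 33.2% ± 0.352 in the same order. The sum and the shares rest on the gene lengths behind the deposited FPKM, which are not given. In shNC the mean of FGFR1 was 146 CPM and 7.85 FPKM. For FGFR3 it was 19.9 CPM and 3.79 FPKM, and for FGFR4 30.5 CPM and 5.85 FPKM. FPKM thus divided FGFR1 by a longer length than FGFR3 or FGFR4, and other lengths would give other shares. By FPKM, FGFR3 at 5.81 ± 0.492 and FGFR4 at 5.63 ± 0.28 overlapped in sh3, while FGFR4 lay above FGFR3 in every sh1 and every shNC library.

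FGFRL1 (ENSG00000127418, chromosome 4, 1009936 to 1026891), the receptor without a kinase, moved in opposite directions with the hairpins. It had 154, 161 and 156 CPM in sh3, 98.8, 101 and 94.8 CPM in sh1, and 135, 133 and 140 CPM in shNC. The sh3 libraries were the highest and the sh1 libraries the lowest, with no overlap. Its log2 fold change was 0.21 ± 0.03 (SE) for sh3 minus shNC and -0.47 ± 0.03 (SE) for sh1 minus shNC. For sh3 minus sh1 it was 0.68 ± 0.03 (SE, adjusted p = 1.3e-07, edgeR), a 1.60-fold difference. Set against the summed FPKM of FGFR1 to FGFR4, the FPKM of FGFRL1 was 1.65 ± 0.0724 in sh3, 0.977 ± 0.0313 in sh1 and 1.65 ± 0.0535 in shNC (SD, n = 3 each). By this measure sh3 and shNC overlapped and sh1 lay below both. The size of the ratio rests on the gene lengths behind FPKM. In shNC FGFRL1 had 136 CPM against 146 CPM for FGFR1, but 29 FPKM against 7.85 FPKM. The ratio thus compares groups and does not show that FGFRL1 exceeded the kinase receptors.

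**Figure D3:**
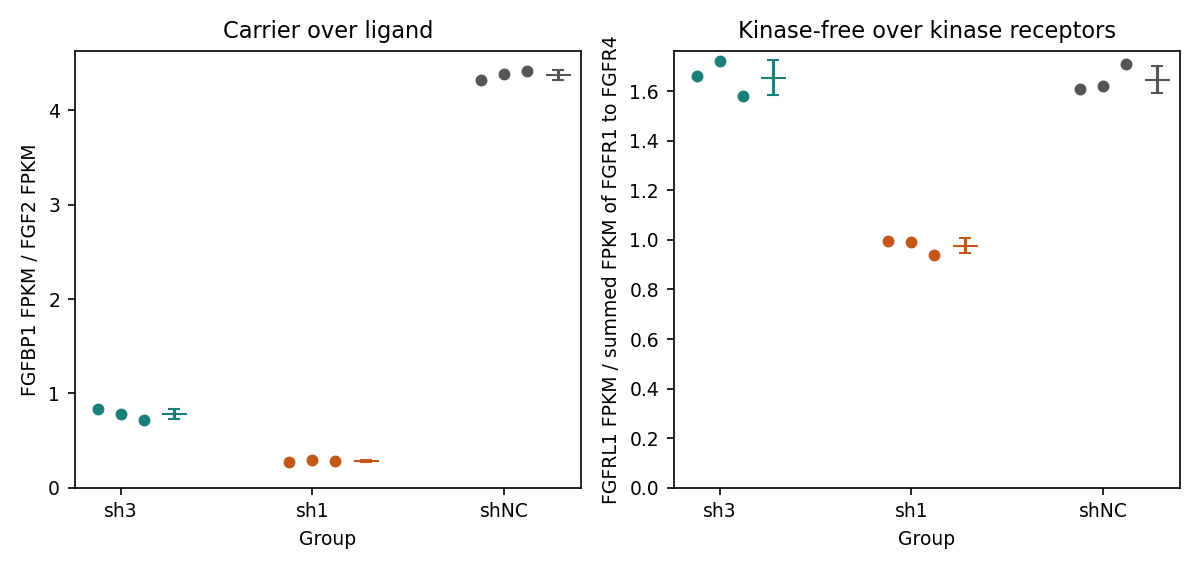
Ratios within each library, from FPKM. Left, FGFBP1 over FGF2; right, FGFRL1 over the sum of FGFR1 to FGFR4. Points are libraries, and the bar beside them is the mean with its SD (n = 3). The left ratio is 4.32 to 4.42 in shNC and below 1 in sh3 and sh1; the right one is lower in sh1 only, at 0.941 to 0.997.

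SDC1 (ENSG00000115884, chromosome 2, 20200797 to 20225433) was higher in sh3 and in sh1. It had 377, 366 and 381 CPM in sh3, 291, 297 and 293 CPM in sh1, and 239, 249 and 229 CPM in shNC. The groups did not overlap, with sh3 highest and shNC lowest. The log2 fold change was 0.65 ± 0.03 (SE) for sh3 minus shNC, 0.30 ± 0.03 (SE) for sh1 minus shNC and 0.35 ± 0.03 (SE, adjusted p = 1.3e-05, edgeR) for sh3 minus sh1. By FPKM, with FGFBP1 low, SDC1 was the most abundant of the 10 genes in the sh3 and sh1 libraries. It stood at 95.9 ± 2.28 FPKM in sh3 and 73.6 ± 0.838 FPKM in sh1, against 61.2 ± 2.67 FPKM in shNC (SD, n = 3 each). This order rests on the gene lengths behind FPKM. In CPM FGF2 lay above SDC1 in every sh1 library, at 396, 379 and 383 against 291, 297 and 293.

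By FPKM the order of levels in sh3 was SDC1, FGF2, FGFRL1, FGFBP1, FGFR1, FGFR3, FGFR4, FGFBP3, FGFR2 and FGF1. In sh1 FGFR4 stood before FGFR3, and FGF1 at 0.669 FPKM stood before FGFR2 and FGFBP3. In shNC FGFBP1 at 163 ± 20.2 FPKM stood first, above 99.7% of the genes in the table, and the order then ran SDC1, FGF2, FGFRL1, FGFR1, FGFR4, FGFR3, FGFBP3, FGFR2 and FGF1. Neighbours in the order overlapped only below 1 FPKM, apart from FGFR3 and FGFR4 in sh3. Those were FGFR2 and FGF1 in sh3, FGFR2 and FGFBP3 in sh1, and FGFBP3, FGFR2 and FGF1 in shNC. All of these orders rest on the gene lengths behind FPKM.

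For sh3 minus shNC 5 of the 10 genes were past the call threshold, an adjusted p under 0.05 in edgeR's quasi-likelihood test, against 26.9% of all genes tested. FGFR1, FGFR3, FGFRL1 and SDC1 were the 4 higher ones (14.4% of all genes) and FGFBP1 the 1 lower one (12.4%). The sh3 and shNC libraries did not overlap in CPM for 5 of the 10 genes, against 40.5% of all genes. For sh1 minus shNC 9 were past the threshold, against 38.7% of all genes tested, with 7 higher (19.9%) and FGFBP1 and FGFRL1 the 2 lower ones (18.8%). The sh1 and shNC libraries did not overlap for 9 of the 10 genes, against 49.9% of all genes. Nothing is read from these counts, since the genes were chosen with these values known. The median log2 fold change of the 10 genes was 0.34 for sh3 and 0.28 for sh1, against -0.01 and -0.02 over all genes tested. Both comparisons share the 3 shNC libraries. For sh3 minus sh1 8 genes were called, against 25.9% of all genes tested. FGFBP1, FGFR3, FGFRL1 and SDC1 were the 4 higher in sh3 (12.9% of all genes), and FGF1, FGF2, FGFR1 and FGFR4 the 4 lower (13% of all genes). The sh3 and sh1 libraries did not overlap for any of the 10 genes, against 41.8% of all genes. The median was 0.06, against 0.01 over all genes tested. Nothing is read from these counts either, since the changes they follow from were known.

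The genes whose pattern was most like that of FGFBP1 were sought over the 9 libraries among 11846 tested genes with a mean of at least 1 FPKM. Genes named only by a clone or database identifier had been left out of these. Likeness was the root mean square difference in log2(CPM + 1) after each gene's shNC mean was subtracted. ALDH3A1, an aldehyde dehydrogenase, was nearest, at 0.14. It had 5.57, 4.91 and 6.39 CPM in sh3, 2.59, 2.09 and 2.81 CPM in sh1, and 32.4, 35.7 and 40 CPM in shNC. The next were much farther: PLAAT4 at 0.63, TCIM at 0.68, the retinal reductase DHRS3 at 0.75, the mTOR inhibitor DDIT4 at 0.79 and the cystathionine gamma-lyase CTH at 0.79. All of these had their 6 sh3 and sh1 values below the 3 control values, which their choice over the same libraries favours. The added 1 compresses falls to low CPM. In the edgeR fit ALDH3A1 gave log2 fold changes of -2.68 with sh3 and -3.85 with sh1, against -2.44 and -3.44 for FGFBP1. DHRS3 gave -2.02 and -4.66. In shNC replicate 3 FGFBP1, ALDH3A1 and CTH were above their shNC means, and PLAAT4, TCIM, DHRS3 and DDIT4 were below theirs.

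**Figure D4:**
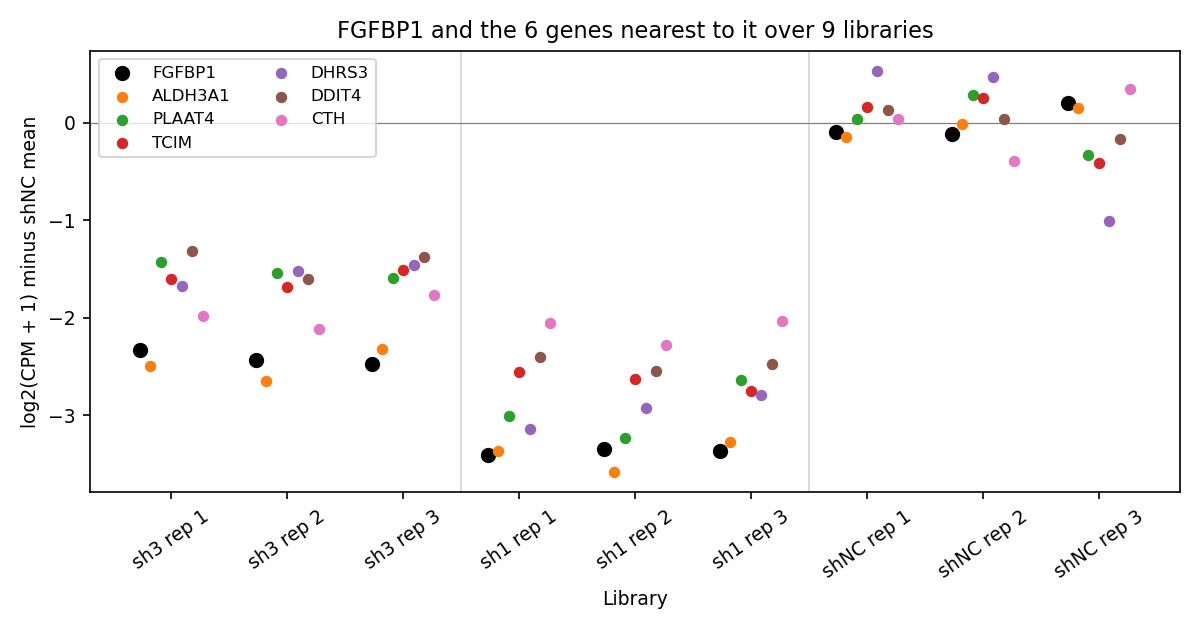
FGFBP1 and the 6 genes nearest to it. The vertical axis is log2(CPM + 1) minus each gene's shNC mean, and each point is a library, grouped as sh3, sh1 and shNC. ALDH3A1 lies beside FGFBP1 in all 9 libraries, with a root mean square difference of 0.14, while the other 5 fell less with sh3.

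Other genes of the pathway were taken from 5 lists of 115 symbols, of which 98 were tested. Of these, 26 rose and 26 fell with sh3, 53.1% in all against 26.9% of all genes tested, and 29 rose and 36 fell with sh1, 66.3% against 38.7%. By direction, 14.4% of all genes rose and 12.4% fell with sh3, and 19.9% rose and 18.8% fell with sh1. The lists were not matched to all genes by level, so these shares stand beside the counts only and test nothing. The median log2 fold change over all 98 was -0.04 with sh3 and 0.00 with sh1, and it differed between the lists. The adjusted p-values below are from edgeR. In each named change that passed the test, except ETV4 with sh3, the 3 libraries of each group lay apart.

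The first list held 9 tested genes: other FGF genes, FGFBP2 and the klotho co-receptor KLB. Of these, 1 rose and 1 fell with sh3, and 1 rose and 3 fell with sh1. Only FGF5 and FGF18 reached a mean of 1 FPKM. KLB, called higher with sh3, had a mean of 0.0771 FPKM. FGF17 and FGFBP2, called lower with sh1, had 0.0922 and 0.113 FPKM. Without sh1 replicate 3, shNC replicate 1 or shNC replicate 2, 1 fell with sh1. None rose with sh3 without sh3 replicate 3 or any 1 shNC library. FGF5, a ligand known for its role in the hair cycle, had 4.34, 6 and 5.23 CPM in sh3, 15.7, 17.1 and 17.8 CPM in sh1, and 3.50, 4.64 and 4.24 CPM in shNC. Like FGF1 and FGF2 it was highest in sh1, with a log2 fold change of 2.03 ± 0.14 (SE, adjusted p = 5.3e-07) for sh1 minus shNC and -1.70 ± 0.14 (SE, adjusted p = 6.0e-06) for sh3 minus sh1. FGF18, a ligand of skeletal and lung growth, had 38.8, 41.5 and 43.3 CPM in sh3, 26.8, 27.4 and 28.2 CPM in sh1, and 54.4, 46.1 and 60.1 CPM in shNC. It fell with both hairpins, by a log2 fold change of -0.38 ± 0.08 (SE, adjusted p = 0.0049) with sh3 and -0.96 ± 0.08 (SE, adjusted p = 2.7e-06) with sh1.

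Of 21 proteoglycan cores and receptor partners, 6 rose and 6 fell with sh3, and 7 rose and 7 fell with sh1. The glypican GPC1, a lipid-anchored heparan sulfate proteoglycan, rose to 222 ± 7.18 CPM in sh3 and 288 ± 2.49 CPM in sh1, against 160 ± 6.62 CPM in shNC (SD, n = 3 each, adjusted p = 2.0e-06 and 9.6e-09). GPC6 rose with sh3 (log2 0.41, adjusted p = 0.0025). N-cadherin, CDH2, which binds FGFR1, rose by a log2 fold change of 0.26 with sh3 and 1.36 with sh1 (adjusted p = 0.0077 and 1.9e-08). The co-receptor NRP1 fell at -0.59 and -0.80 (adjusted p = 1.0e-05 and 3.2e-07), and FLRT3, a membrane protein that binds FGF receptors, fell at -0.52 and -1.88 (adjusted p = 0.02 and 1.7e-06). The sh3 call of FLRT3 was lost without shNC replicate 2, at -0.33 (adjusted p = 0.09), and also without shNC replicate 1, sh3 replicate 2 or sh3 replicate 3.

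Of 22 genes that make or edit heparan sulfate, 6 rose and 6 fell with sh3, and 8 rose and 6 fell with sh1. Without sh1 replicate 3 or without shNC replicate 3, 3 fell with sh1. XYLT1, which starts the chain with xylose, rose at 1.03 with sh3 and 0.70 with sh1 (adjusted p = 6.1e-07 and 5.6e-06). B4GALT7, of the linker, rose at 0.40 and 0.61 (adjusted p = 0.0058 and 1.8e-04), and the 3-O-sulfotransferase HS3ST3A1 at 0.88 and 0.55 (adjusted p = 1.5e-06 and 2.3e-05). The heparanase HPSE, which cleaves the chains, fell at -0.55 and -0.57 (adjusted p = 0.0047 and 0.0023). The sulfatase SULF2, which removes 6-O-sulfates, fell at -0.22 and -0.49 (adjusted p = 0.0033 and 4.6e-06). The N-deacetylase and N-sulfotransferase NDST1 fell with sh3 at -0.53 and rose with sh1 at 0.14 (adjusted p = 5.1e-07 and 0.0054), and differed between the hairpins (log2 -0.67 for sh3 minus sh1, adjusted p = 1.1e-07).

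Of 26 adaptors and relay proteins, 8 rose and 4 fell with sh3, and 10 rose and 7 fell with sh1, by small amounts, and 2 in place of 4 fell with sh3 without shNC replicate 1 or 3, sh3 replicate 2 or 3, or sh1 replicate 1 or 3. The kinase AKT1 rose at 0.41 with each hairpin (adjusted p = 4.2e-07 for sh3 and 1.3e-07 for sh1), the adaptor GAB2 at 0.36 with sh3 and 0.34 with sh1 (adjusted p = 0.0075 and 0.0074) and HRAS at 0.27 and 0.37 (adjusted p = 0.0065 and 4.6e-04). MAPK3, the kinase ERK1, fell at -0.19 and -0.31 (adjusted p = 0.0089 and 2.0e-04), the phospholipase PLCG1 at -0.21 and -0.27 (adjusted p = 0.0029 and 2.7e-04) and the PI3K subunit PIK3R1 at -0.13 and -0.52 (adjusted p = 0.048 and 2.0e-06). The sh3 call of PIK3R1 was lost without any 1 of 7 libraries.

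Of 20 feedback inhibitors and ERK-induced genes, 5 rose and 9 fell with sh3, and 3 rose and 13 fell with sh1, with medians of -0.20 and -0.42. Over all genes tested, unmatched for level, 12.4% fell with sh3 and 18.8% with sh1. The sh1 counts ran from 13 to 14 lower over the libraries left out. The sh3 count of lower genes was 4 without sh3 replicate 1, shNC replicate 1 or shNC replicate 2, 5 without sh3 replicate 3, and 11 without shNC replicate 3. The library shNC replicate 3 lay nearest to sh3 and sh1 among the controls for ETV1, ETV5, SPRY1 and SPRY2. The Sprouty inhibitors SPRY1 and SPRY2 fell with both hairpins. SPRY1 gave -0.31 with sh3 and -1.40 with sh1 (adjusted p = 0.037 and 6.2e-07), the sh3 call being lost without any 1 of 7 libraries. SPRY2 gave -0.42 and -0.67 (adjusted p = 0.0067 and 1.5e-04). The genes from here to DUSP4 were named outside the naming rule. ETV4, SPRED2, SPRED3 and CCND1 were also called lower with both hairpins. With sh3 they stood at -0.29, -0.21, -0.34 and -0.16, and with sh1 at -1.01, -0.29, -0.63 and -0.17. The sh3 and shNC libraries of ETV4 overlapped. DUSP6, SPRED1 and PHLDA1 were called lower with sh1 only. SPRY4 fell with sh1 at -0.71 (adjusted p = 1.1e-04) but stood at -0.06 with sh3 (adjusted p = 0.73), and SPRY3 was called with neither. DUSP4 rose with sh3 at 0.42 and fell with sh1 at -0.58 (adjusted p = 1.5e-04 and 6.4e-06). The ETS factor ETV5 fell at -0.37 and -0.47 (adjusted p = 0.003 and 3.2e-04), and had 39.6, 36 and 41.4 CPM in sh3, 37.1, 35.9 and 36.3 CPM in sh1, and 53.5, 53.3 and 44.2 CPM in shNC. ETV1 fell with sh1 at -1.30 (adjusted p = 1.4e-05). It stood at -0.37 with sh3 (adjusted p = 0.061), and at -0.51 without shNC replicate 3 (adjusted p = 0.0082). It had 13.8, 15.6 and 13.1 CPM in sh3, 6.86, 6.9 and 8.6 CPM in sh1, and 20.2, 20 and 14.8 CPM in shNC, where sh3 and shNC overlapped. The AP-1 subunit FOSL1 rose at 0.80 and 0.31 (adjusted p = 1.8e-07 and 7.4e-05), and the immediate early factor EGR1 rose at 0.49 and 1.12 (adjusted p = 0.0014 and 1.1e-06).

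**Figure D5:**
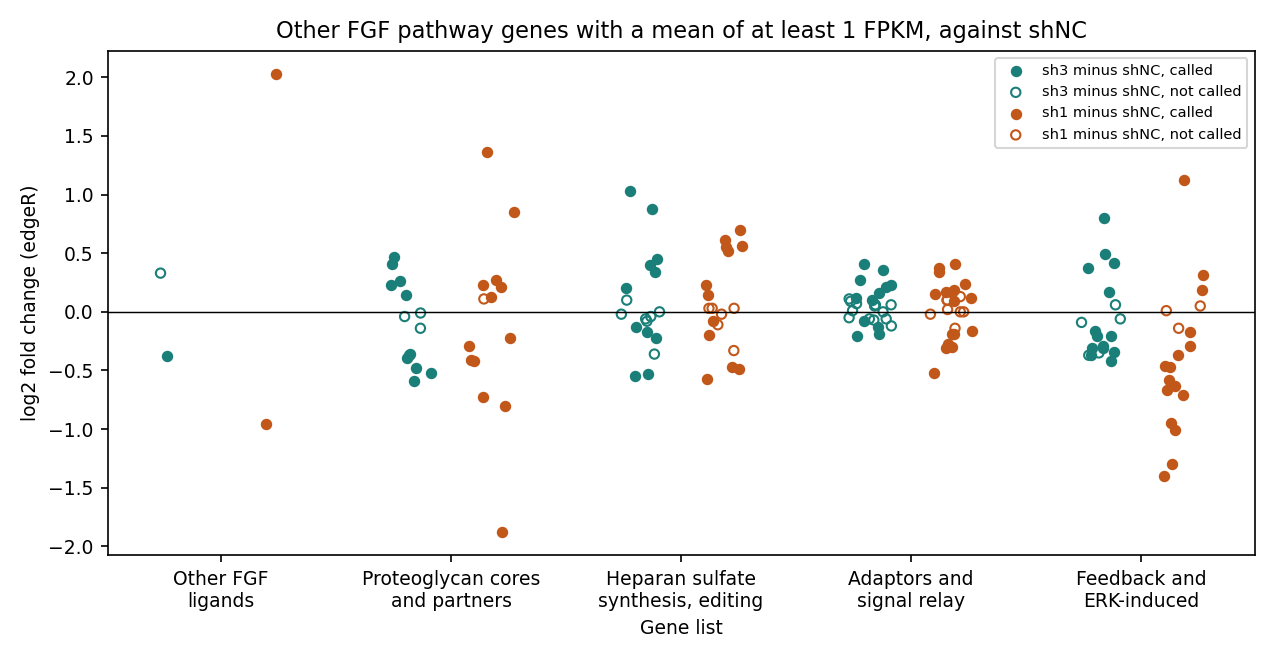
Log2 fold change against shNC of the pathway genes with a mean of at least 1 FPKM (2, 14, 18, 25 and 19 genes from left to right), sh3 left of sh1 in each list, with a small random sideways shift. Filled points had an adjusted p under 0.05; in the last list most sh1 points lie below 0, with SPRY1 at -1.40 and EGR1 at 1.12.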

How the data were processed

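Poly(A) RNA was captured on oligo(dT) beads and made into dUTP-marked libraries for paired reads, per the labels' protocols. The submitters' processing notes name cutadapt 1.9, HISAT2 2.2.1 and StringTie 2.1.6, the GRCh38 build, and also edgeR and DESeq2, with no roles. The annotation is not given there. The authors deposited whole-number read counts per gene, which are not normalized. FPKM, the second unit in the table the authors deposited, is named in its column headers and was used for levels between genes. The gene lengths behind it are not given.

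The counts were fitted with edgeR 4.0.16 in R 4.3.3 (filterByExpr with a minimum count of 10, TMM, glmQLFit, glmQLFTest). All 9 libraries entered 1 fit without a block. P-values are two-sided and were adjusted over all 21296 genes by the Benjamini-Hochberg method, with a call threshold of 0.05. The standard error was the absolute log2 fold change divided by the square root of F. A floor of 3 counts was 0.0433 to 0.052 CPM, which covers counting error only. No replicate pair agreed within sampling noise.

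The 10 genes, the pathway lists and the tests were chosen with earlier results of these data known. The naming rule took, per list and hairpin, up to 2 called genes per direction with a mean of at least 1 FPKM, the widest log2 fold changes first, and the 6 genes nearest to FGFBP1. Alternatives were DESeq2 1.42.0, library totals, no filter, limma 3.58.1 on log2(FPKM + 1) and log2(FPKM + 0.1), the replicate block, and leaving out each library. Leaving out libraries for single pathway lists, named pathway genes and SULF1 was chosen after seeing the data.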

Additional observations from a re-analysis of the deposited data

Results flagged for a closer look

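For FGFRL1 and FGFR4 the log2 fold changes against shNC had opposite signs in sh3 and sh1, and the difference between them passed the test. For FGFRL1 the log2 fold change of sh3 minus sh1 was 0.68 ± 0.03 (SE, adjusted p = 1.3e-07, edgeR), with 3 of 3 sh3 libraries above and 3 of 3 sh1 libraries below the range of shNC. For FGFR4 it was -0.22 ± 0.05 (SE, adjusted p = 0.0048, edgeR). All 3 sh1 libraries lay above shNC, while the sh3 libraries overlapped shNC, so a fall with sh3 is not shown.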

How the results depend on the processing

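FGFBP1 kept its direction under every alternative run, from -2.50 to -2.33 for sh3 minus shNC, -3.49 to -3.33 for sh1 minus shNC and 0.95 to 1.03 for sh3 minus sh1. The counts of called genes stayed within 1.5 times the reported ones: 5 to 6 of the 10 genes for sh3 minus shNC, 8 to 9 for sh1 minus shNC and 8 to 9 for sh3 minus sh1. FGF2 for sh3 minus shNC reversed to -0.01 without shNC replicate 2 and ran from -0.01 to 0.15 over the libraries left out. FGFR2 for sh1 minus shNC was 0.14 with limma on log2(FPKM + 1), 0.58 on log2(FPKM + 0.1), and 0.64 to 1.11 over the libraries left out. The causes were not tested. FGF1 ran from 0.56 to 2.71 for sh1 minus shNC and from -2.25 to -0.49 for sh3 minus sh1, with the smallest sizes on log2(FPKM + 1). The replicate numbers did not pair the libraries, with correlations of -0.032 to 0.021 between libraries of the same number. With the replicate block, 5, 9 and 8 of the 10 genes and 47, 65 and 43 of the pathway genes were called for sh3 minus shNC, sh1 minus shNC and sh3 minus sh1. Genes below about 1 CPM (FGFBP3, FGF1) are limited by their counts.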

Other observations

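Among the pathway genes below 1 FPKM, GPC3 and SULF1 were singled out after their values were seen. GPC3, a glypican, held 94, 58 and 114 counts in sh3, 3, 0 and 0 in sh1, and 0, 2 and 0 in shNC. SULF1, a sulfatase that removes 6-O-sulfates from heparan sulfate, held 0 counts in each of the 3 sh3 libraries, 48, 69 and 64 in sh1, and 8, 84 and 31 in shNC. Against the floor of 3 counts per library, SULF1 was at least 20.5-fold lower in sh3 than in sh1 and at least 13.4-fold lower than in shNC. The bound against shNC rests on shNC replicate 2, and without it is at least 6.84-fold.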
